A study of Mus musculus with 15 samples.

Results

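miR-34a was followed through its 2 mature strands, mmu-miR-34a-5p and mmu-miR-34a-3p (written here without the species prefix), in small RNA libraries of whole mouse lung taken 7 days after saline or bleomycin, a drug that breaks DNA and is used to injure the lung. The 2 members were the rows of the deposited table that carry those names, of 1424 mature miRNAs in all, and the rule uses no measured value. The members and the lists below were, however, chosen with earlier results of these data known. The mice behind the 15 libraries were C57BL/6, of either sex, either wild type (WT) or homozygous for R213G, a common variant of the extracellular superoxide dismutase EC-SOD. EC-SOD clears superoxide outside cells. Each mouse had 1 dose into the trachea at 8 to 12 weeks of age (labelled 11 weeks), either 100 uL of bleomycin (1 U/mL) or the same volume of saline (PBS), and the lungs were rinsed with PBS by way of the right ventricle before freezing. The groups were R213G bleomycin (n = 4), R213G PBS (n = 4), WT bleomycin (n = 4) and WT PBS (n = 3). By the labels, every WT and R213G mouse shared the strain, the route and the number of days after the dose. The numbers in the library names form separate runs for R213G and WT. What those numbers stand for is not given, so genotype cannot be told apart from it. The labels do not give the sex of each mouse, and nothing in them says which libraries came from separate mice, so the p-values measure the spread between these libraries.

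The miR-34a gene is a direct transcriptional target of p53, the factor that responds to DNA damage, and its 5p strand represses cell cycle and survival genes. The miR-34 and miR-449 miRNAs share a seed, the bases near the 5′ end with which a miRNA pairs to its targets. The miR-34b, miR-34c and miR-449 genes are best known in the lung from multiciliated airway cells, whereas miR-34a is made in many cell types.

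The sequences below, from RefSeq for mouse (GRCm38.p6), show what the 2 strands are and why miR-34a-5p is read beside its family. In the hairpin, capitals mark the mature arms, at bases 20 to 41 (5p) and 64 to 84 (3p). In the mature strands, capitals mark the seed, bases 2 to 8.
miR-34a hairpin: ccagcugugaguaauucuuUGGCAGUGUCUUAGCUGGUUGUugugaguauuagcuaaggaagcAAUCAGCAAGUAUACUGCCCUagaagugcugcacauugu
miR-34a-5p: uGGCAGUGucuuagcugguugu
miR-34a-3p: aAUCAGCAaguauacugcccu
miR-34b-5p: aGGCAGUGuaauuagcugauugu
miR-449a-5p: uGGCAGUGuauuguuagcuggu
miR-449c-5p: aGGCAGUGcauugcuagcugg
Of 1679 mature mouse miRNAs with a sequence in that table, 4 had the seed GGCAGUG, and these are shown above. The other family members followed here, miR-34c-5p and miR-449b, are given by name only and are not in that count. The seed of the 3p strand, AUCAGCA, stood in miR-34a-3p alone (1 of 1679). Outside the seed the family differs, and miR-34b-5p lies 4 single-base edits from miR-34a-5p, miR-449a-5p 6 and miR-449c-5p 7. The longest stretch shared with miR-34a-5p was 8 bases in miR-34b-5p, 9 in miR-449a-5p and 7 in miR-449c-5p.

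The hairpin lies at chr4:150068454-150068555 on the plus strand (GRCm38), annotated in GENCODE vM21 as the miRNA gene Mir34a. The 5p strand occupies chr4:150068473-150068494 and the 3p strand chr4:150068517-150068537. The last bases of the hairpin, after the 3p strand, overlap the start of Gm37795, an unclassified transcript at chr4:150068539-150070997. The nearest other genes on the same strand were the lincRNA Gm13067, 11478 bases upstream, and the protein-coding receptor gene Gpr157, 18810 bases downstream. The genome build behind the deposited values is not given here.

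Values were taken as log2 of 1 plus an equalized count, a read count that the authors scaled to a common library size. That unit was inferred from the values, although the deposited table is named for RPKM, which would divide by length. If it were so, the family shares and strand ratios below would be per length rather than per read. Read depth is unknown, and library sums were not equal, running from 1.81e7 to 2.48e7 equalized counts. They averaged 1.93e7 in R213G bleomycin and 2.23e7 in R213G PBS lungs. In WT lungs they averaged 2.02e7 after bleomycin and 2.27e7 after PBS. Of the 1424 miRNAs, 818 reached more than 5 equalized counts in 3 or more libraries and were tested with limma, and both members passed. An adjusted p under 0.05 was called a change.

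After bleomycin miR-34a-5p, the guide strand, stood higher in every library of both genotypes. Its log2 level was 12.68, 12.49, 13.05 and 12.63 in R213G bleomycin lungs, against 11.29, 11.37, 11.61 and 11.38 in R213G PBS lungs. In WT bleomycin lungs it was 12.30, 12.45, 12.53 and 12.50, against 11.31, 11.39 and 11.41 in WT PBS lungs. All 8 bleomycin libraries lay above all 7 PBS libraries, and the highest was R213G bleomycin replicate 3. By order of group mean, R213G bleomycin (12.71 ± 0.24, SD, n = 4) came before WT bleomycin (12.44 ± 0.10, SD, n = 4), then R213G PBS (11.41 ± 0.14, SD, n = 4) and WT PBS (11.37 ± 0.05, SD, n = 3). The PBS groups differed by less than the spread in R213G PBS. Ranked among all 1424 miRNAs of a library, it stood between 103 and 118 in bleomycin lungs and between 148 and 155 in PBS lungs.

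In R213G lungs miR-34a-5p rose by 1.30 ± 0.11 on the log2 scale (SE, limma, adjusted p = 3.14e-07), which is 2.46-fold with a 95% confidence interval of 2.08 to 2.91. In WT lungs it rose by 1.08 ± 0.12 (SE, adjusted p = 8.18e-06), 2.11-fold with an interval of 1.76 to 2.53. Rises were common in this tissue, since 22.2% of the 818 tested miRNAs rose in R213G lungs and 16.4% in WT lungs. Groups without overlap and higher after bleomycin made up 21.9% of tested miRNAs in R213G and 18.7% in WT. By size of the difference miR-34a-5p stood 52nd of 818 from the top in R213G and 78th in WT, whereas by p it stood 9th and 15th. The authors' deposited table holds the same log2 fold changes, 1.30 in R213G and 1.08 in WT. Their q-values were 0.00963 and 0.0146 by the parametric test and 0.109 and 0.223 by the rank test. The rank test p-values, 0.0286 in R213G and 0.0571 in WT, were the smallest that these group sizes allow.

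**Figure D1:**
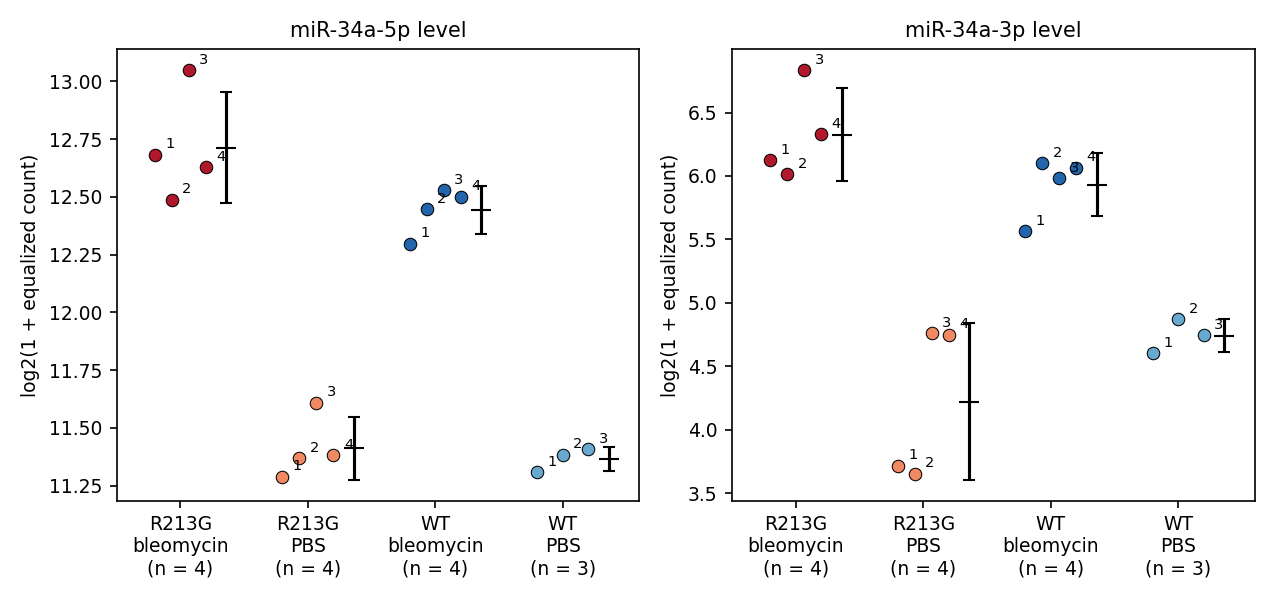
Log2 level of miR-34a-5p and miR-34a-3p in each library, drawn as points numbered by replicate, with the group mean ± SD at the right of each group. The 8 bleomycin libraries lie above the 7 PBS libraries for both strands, and R213G PBS replicates 1 and 2 are the lowest for miR-34a-3p.

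The scarcer strand miR-34a-3p also stood higher after bleomycin in every library. It was 6.12, 6.02, 6.84 and 6.33 in R213G bleomycin lungs, against 3.72, 3.66, 4.76 and 4.75 in R213G PBS lungs. WT bleomycin lungs had 5.56, 6.10, 5.98 and 6.07, against 4.61, 4.87 and 4.75 in WT PBS lungs. Groups did not overlap between bleomycin and PBS, but R213G PBS libraries split into a pair near 3.7 (replicates 1 and 2) and a pair near 4.8 that lay among the WT PBS libraries. The means were 6.33 ± 0.36 in R213G bleomycin and 4.22 ± 0.62 in R213G PBS lungs (SD, n = 4 each), then 5.93 ± 0.25 in WT bleomycin (SD, n = 4) and 4.74 ± 0.13 in WT PBS lungs (SD, n = 3). By order of mean, R213G bleomycin came before WT bleomycin, WT PBS and R213G PBS. The PBS groups differed by less than the spread in R213G PBS.

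After bleomycin miR-34a-3p rose by 2.11 ± 0.26 in R213G lungs (SE, limma, adjusted p = 2.14e-05), 4.30-fold with an interval of 2.92 to 6.35. In WT lungs the rise was 1.19 ± 0.29 (SE, adjusted p = 0.00521), 2.28-fold with an interval of 1.50 to 3.47. These were the 19th and 68th largest differences of 818, whereas by limma p the strand stood 20th in R213G and 113th in WT. The strand is thinly read. A single read was estimated from the lowest values of each library to be worth between 0.639 and 1.40 equalized counts, which puts miR-34a-3p at about 12.9, 12.9, 24.8 and 35.3 reads in the R213G PBS libraries and at no more than about 108 reads in any library. In the authors' deposited table its q-value was 0.0293 in R213G and 0.0535 in WT by the parametric test. By the rank test the q-values were 0.109 and 0.223. Here too the rank test p-values, 0.0286 in R213G and 0.0571 in WT, were the smallest that these group sizes allow.

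No genotype difference was called for either strand. After PBS, R213G exceeded WT for miR-34a-5p by 0.04 (95% confidence interval -0.22 to 0.31, limma, adjusted p = 0.992), while for miR-34a-3p the difference was -0.52 (-1.13 to 0.08, adjusted p = 0.827). After bleomycin the R213G minus WT difference was 0.27 for miR-34a-5p (0.03 to 0.51, adjusted p = 0.387) and 0.40 for miR-34a-3p (-0.16 to 0.96, adjusted p = 0.584). Without R213G bleomycin replicate 3 these were 0.16 and 0.23. The responses of the 2 genotypes differed by 0.22 for miR-34a-5p (-0.13 to 0.58, adjusted p = 0.738) and by 0.92 for miR-34a-3p (0.09 to 1.74, adjusted p = 0.601). Without R213G bleomycin replicate 3 the value for miR-34a-5p was 0.11 (adjusted p = 0.952). None of the 818 miRNAs was called by limma in any of these comparisons (0 each, or 0% of those tested). Before adjustment, limma gave a p under 0.05 to 44 after PBS, 97 after bleomycin and 65 in the difference of responses. Those included miR-34a-5p after bleomycin and miR-34a-3p in the difference of responses.

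The 5p strand stayed far above the 3p strand in every lung. The strand difference, log2 5p minus log2 3p, was 6.56, 6.47, 6.21 and 6.30 in R213G bleomycin libraries, against 7.57, 7.71, 6.85 and 6.63 in R213G PBS libraries. It was 6.73, 6.35, 6.54 and 6.43 in WT bleomycin libraries, against 6.70, 6.52 and 6.66 in WT PBS libraries. As ratios of equalized counts these ran from 74.8 to 95.8 in R213G bleomycin and from 103 to 228 in R213G PBS, and from 82.5 to 109 in WT bleomycin and from 94.7 to 109 in WT PBS lungs. R213G bleomycin lay wholly below R213G PBS, whose replicates 1 and 2 were the highest of all 15 libraries, while the WT groups overlapped. Over all libraries the strand difference averaged 6.68, and its size ranked 57th of the 234 miRNAs with both strands tested, whose median was 3.69. In 124 of those pairs the 5p strand was the higher one and in 110 the 3p strand.

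**Figure D2:**
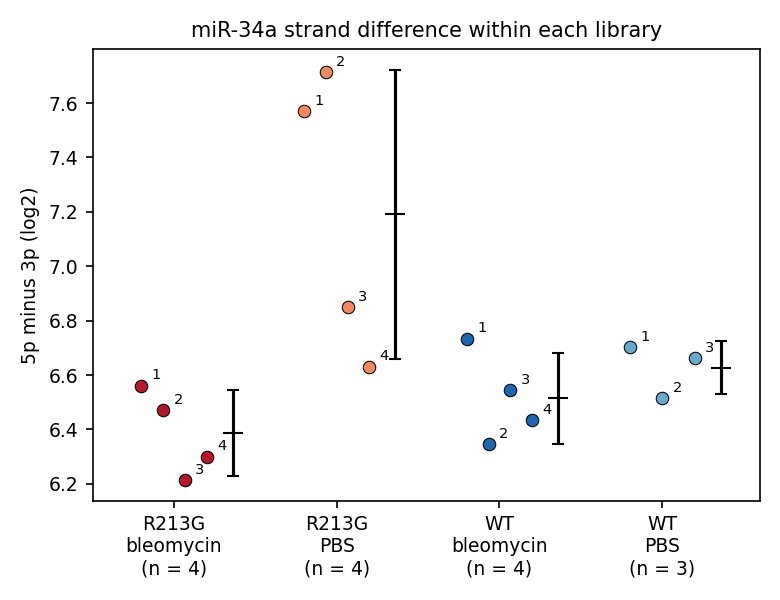
Strand difference of miR-34a, log2 miR-34a-5p minus log2 miR-34a-3p, in each library, numbered by replicate, with the group mean ± SD. R213G bleomycin libraries lie at 6.21 to 6.56 and R213G PBS libraries at 6.63 to 7.71, whereas the WT groups overlap.

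In R213G lungs the strand difference fell by 0.80 ± 0.21 after bleomycin (SE, limma over 234 pairs, adjusted p = 0.0143), that is, toward the 3p strand. That SE pools the spread of all groups, and the spread was widest in R213G PBS (SD 0.53, against 0.16 in R213G bleomycin). From the R213G groups alone the SE was 0.28. In WT lungs the change of the strand difference was -0.11 ± 0.23 (SE, limma, adjusted p = 0.778). Of the 234 pairs, 10.7% fell and 14.5% rose in R213G, against 3.85% and 3.42% in WT, and 12.4% lay wholly lower after bleomycin in R213G. By size miR-34a stood 28th of 234 from the lowest, and by p 31st of all pairs. With no filter on low values the R213G call was lost (-0.80, adjusted p = 0.0503). An exact two-sided permutation test over the libraries gave p = 0.0286 in R213G, the smallest that 4 against 4 allows (0.114 adjusted over the 4 comparisons), and p = 0.4 in WT, where the smallest possible is 0.0571. The genotypes' strand responses differed by -0.69 (-1.36 to -0.03, adjusted p = 0.554), which was not called. After PBS the strand difference was 0.57 higher in R213G than in WT (adjusted p = 0.705), and after bleomycin the R213G minus WT value was -0.13 (adjusted p = 0.828). In R213G PBS replicates 1 and 2, where the strand difference was highest, the 3p strand had only about 12.9 reads each, and the part of low counts in the R213G shift was not tested. Without replicate 1 the shift was -0.68 (adjusted p = 0.0395) and without replicate 2 it was -0.63 (adjusted p = 0.042).

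Some other miRNAs moved further between strands in both genotypes than miR-34a did. The pairs below were picked by p over these same libraries, so their calls follow from that choice. Toward the 5p strand the 3 pairs with the smallest p were miR-455 (1.12 in R213G, 0.98 in WT), miR-223 (0.89 and 0.80) and miR-200c (0.92 and 0.88). Toward the 3p strand they were miR-335 (-1.32 in R213G, -1.02 in WT), miR-125a (-1.07 and -0.85) and miR-1247 (-1.97 and -1.76). These 6 pairs were called in each genotype, with adjusted p up to 0.00067 in R213G and 0.0022 in WT.

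Within its seed family miR-34a-5p was a small part that stood higher after bleomycin. Family members were compared as equalized counts not divided by length, since the mature strands with a sequence above are 21 to 23 bases long. Of the summed counts of miR-34a-5p, miR-34b-5p, miR-34c-5p, miR-449a-5p, miR-449b and miR-449c-5p, miR-34a-5p made up 4.55%, 4.12%, 4.49% and 3.97% in R213G bleomycin libraries, against 1.53%, 1.76%, 2.67% and 1.47% in R213G PBS libraries. Its share was 4.71%, 3.83%, 3.43% and 4.03% in WT bleomycin libraries, against 1.89%, 1.92% and 1.68% in WT PBS libraries. Bleomycin and PBS libraries did not overlap in either genotype, and R213G PBS replicate 3 was the highest PBS library.

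The share was 2.42 ± 0.31 percentage points higher in R213G bleomycin than in R213G PBS lungs (SE, exact two-sided permutation p = 0.0286, adjusted over 4 comparisons 0.114). In WT lungs it was 2.17 ± 0.32 points higher after bleomycin (SE, exact permutation p = 0.0571, adjusted 0.114), and each of these p-values is the smallest its group sizes allow. Between genotypes it differed by 0.03 points after PBS (exact permutation p = 0.971) and 0.28 points after bleomycin (exact permutation p = 0.457). The family total was log2 17.26 ± 0.19 in R213G bleomycin and 17.21 ± 0.27 in R213G PBS lungs (SD, n = 4 each, exact permutation p = 0.771). WT bleomycin lungs had 17.10 ± 0.29 (SD, n = 4) and WT PBS lungs 17.14 ± 0.15 (SD, n = 3, exact permutation p = 0.914).

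**Figure D3:**
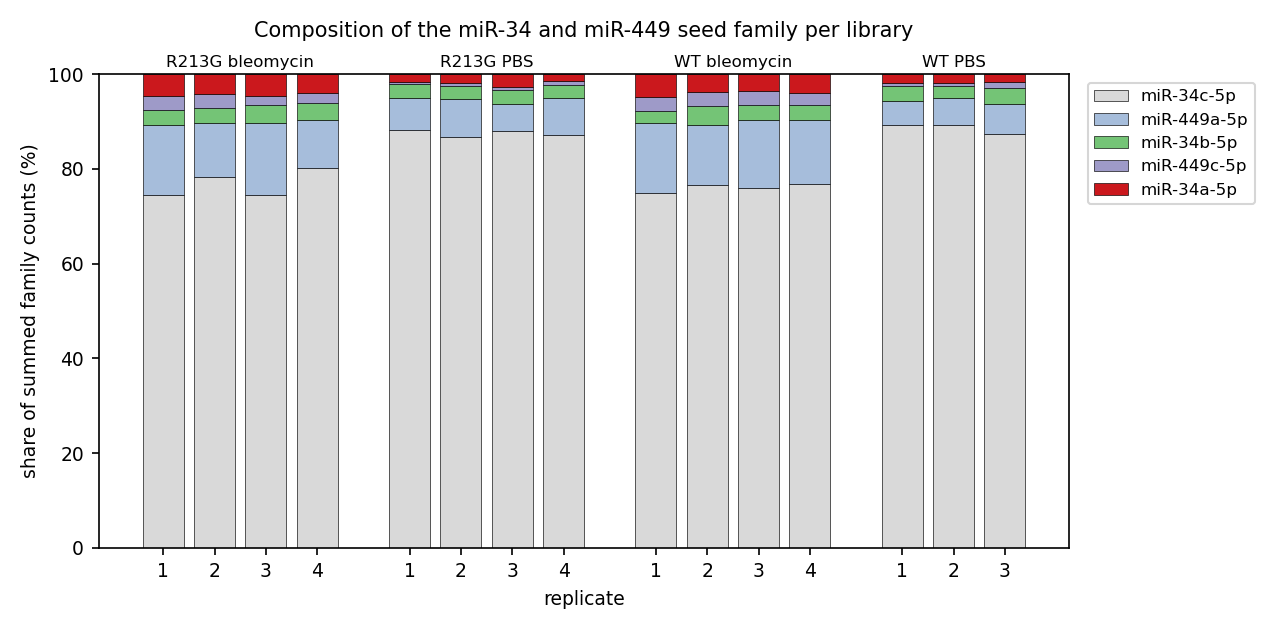
Composition of the miR-34 and miR-449 seed family in each library, as percent of the family's summed equalized counts. miR-34c-5p is the largest share everywhere, and the shares of miR-34a-5p, miR-449a-5p and miR-449c-5p are larger in bleomycin libraries; miR-449b is too small to be drawn.

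Most of the family's counts came from miR-34c-5p, of the multiciliated cell locus miR-34b/c, with 74.4% to 80.3% in R213G bleomycin and 86.8% to 88.2% in R213G PBS lungs, and 75.0% to 76.9% in WT bleomycin and 87.3% to 89.2% in WT PBS lungs. Its own level was not called changed. The log2 difference of miR-34c-5p was -0.13 in R213G (adjusted p = 0.5, and 0.22 with quantile normalization) and -0.26 in WT (adjusted p = 0.24). Its neighbour miR-34b-5p likewise was not called, with 0.31 in R213G (adjusted p = 0.284) and 0.08 in WT (adjusted p = 0.834, and -0.04 with equal library medians).

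The miR-449 members, products of a cluster on chromosome 13 that is switched on in multiciliated cells, rose, except for miR-449b in WT lungs. In R213G lungs miR-449a-5p rose by 0.91 (adjusted p = 0.00405), miR-449c-5p by 1.95 (adjusted p = 3.2e-05) and miR-449b by 2.297 (adjusted p = 0.000818). In WT lungs miR-449a-5p rose by 1.21 (adjusted p = 0.00156) and miR-449c-5p by 1.82 (adjusted p = 0.00016), while miR-449b at 1.20 was not called (adjusted p = 0.0763). That WT call was gained without R213G PBS replicate 3 (adjusted p = 0.0179) or 4 (adjusted p = 0.0366), which change the pooled spread only. It was also gained with the 2 WT groups alone (adjusted p = 0.0238) and with a pseudocount of 5 (0.84, adjusted p = 0.019). So 3 of 5 other family members rose in R213G, with a median log2 difference of 0.91, and 2 of 5 in WT, with a median of 1.20. Over all tested miRNAs the median was 0.05 in each genotype, and 22.2% rose in R213G and 16.4% in WT. When more than 20 equalized counts were required in at least 3 libraries, miR-449b was not tested. Then 2 of 4 rose in each genotype, with medians of 0.61 in R213G and 0.64 in WT. The scarcest, miR-449b, lay between 0.04 and 2.89 in R213G PBS libraries.

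**Figure D4:**
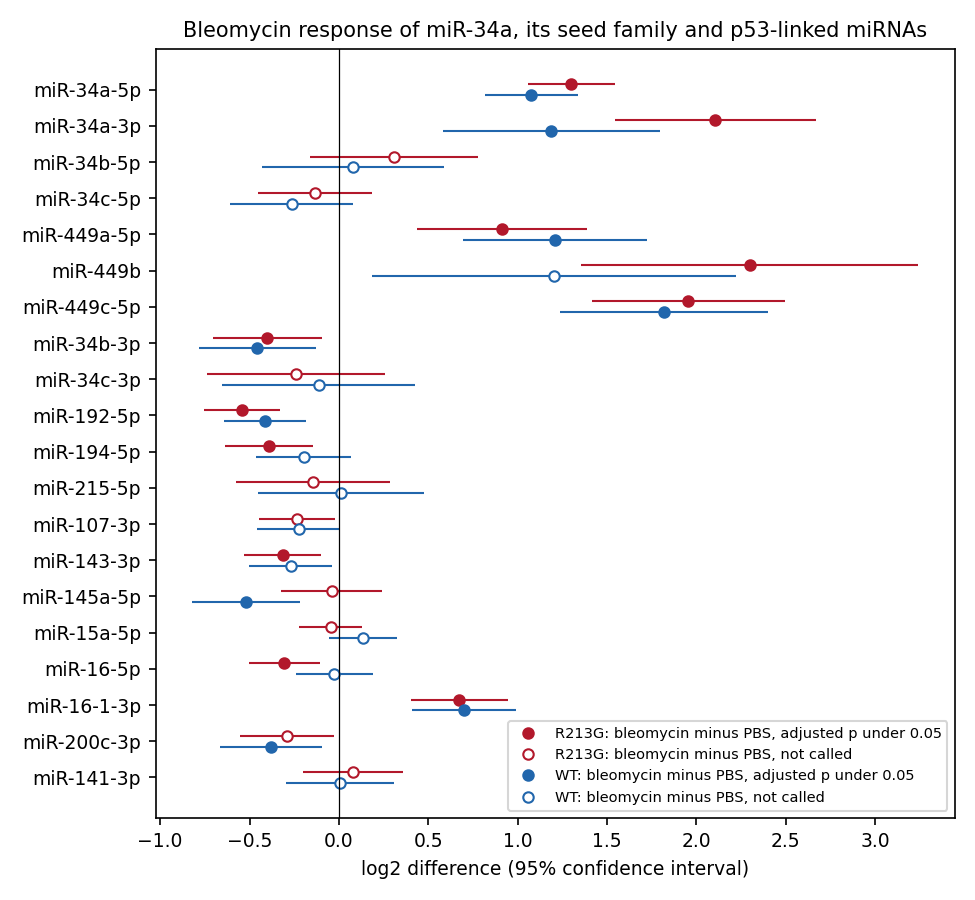
Log2 difference, bleomycin minus PBS, with its 95% confidence interval, for both miR-34a strands, the seed family and the p53-linked list in R213G (red, above) and WT (blue, below) lungs. Filled points were called by limma; miR-34a lies to the right with the miR-449 members, whereas most of the p53-linked list lies near or left of 0.

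Other miRNAs linked to p53 in cell culture mostly did not share the rise of miR-34a. The list held 16 miRNAs transcribed or processed under p53, and of these miR-605-5p was not analysed here. In R213G lungs 1 of the 15 tested members rose, 5 fell and 9 were not called, and in WT lungs 1 rose, 4 fell and 10 were not called. The medians were -0.23 in R213G and -0.20 in WT. For comparison, 22.2% of all tested miRNAs rose and 19.8% fell in R213G, and 16.4% rose and 10.3% fell in WT.

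The member that rose was miR-16-1-3p, the minor strand of a cell cycle miRNA, by 0.67 in R213G (adjusted p = 0.000699) and 0.70 in WT (adjusted p = 0.00146). Among those that fell, miR-192-5p, an epithelial miRNA and p53 target, was at -0.54 in R213G (adjusted p = 0.000579) and -0.41 in WT (adjusted p = 0.00945). With quantile normalization miR-192-5p was at -0.27 in R213G (adjusted p = 0.093) and -0.03 in WT (adjusted p = 0.903), and its WT call was also lost without WT PBS replicate 2 (-0.34, adjusted p = 0.0566). The strand miR-34b-3p, from the other p53-linked miR-34 gene, fell too, at -0.40 in R213G (adjusted p = 0.0338) and -0.46 in WT (adjusted p = 0.0382). Its mean log2 level exceeded that of miR-34b-5p in every group (13.00 against 12.06 in WT PBS lungs).

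The remaining calls were made in one genotype each, and none of their genotype differences was called. In R213G lungs miR-194-5p, which is made with miR-192-5p, was at -0.39 (adjusted p = 0.0125, WT -0.20). The cell cycle miRNA miR-16-5p was at -0.31 in R213G (adjusted p = 0.0159, WT -0.03), and the smooth muscle miRNA miR-143-3p at -0.32 (adjusted p = 0.0204, WT -0.27). In WT lungs miR-145a-5p, the neighbour of miR-143, was at -0.52 (adjusted p = 0.0126, R213G -0.04), and the epithelial miR-200c-3p at -0.38 (adjusted p = 0.046, R213G -0.29). Quantile normalization ended the call of miR-143-3p in R213G (0.00, adjusted p = 1) and of miR-145a-5p in WT (-0.24, adjusted p = 0.216), and it gained calls for miR-16-5p in WT (-0.34, adjusted p = 0.0027) and miR-200c-3p in R213G (-0.35, adjusted p = 0.0134). With no filter on low values miR-143-3p in R213G (adjusted p = 0.0752) and miR-200c-3p in WT (adjusted p = 0.0618) were not called. With no intensity trend miR-34b-3p was called in neither genotype (adjusted p = 0.0614 in R213G and 0.0707 in WT), and its WT call was also lost with array weights (-0.33, adjusted p = 0.105) and with the 2 WT groups alone (adjusted p = 0.0861).

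The count that fell in R213G was 3 without R213G bleomycin replicate 1, R213G PBS replicate 1 or R213G PBS replicate 4, each of which ended the calls of miR-34b-3p and miR-143-3p. In WT it was 2 without WT bleomycin replicate 1 or 2 or WT PBS replicate 1, and 1 without WT PBS replicate 2. The miR-34b-3p call was also lost in R213G without R213G bleomycin replicate 2 (-0.34, adjusted p = 0.09). Its WT call ended when WT bleomycin replicates 1 (-0.34, adjusted p = 0.0988) and 2 (-0.42, adjusted p = 0.0932) were each set aside, and likewise for WT PBS replicates 2 (-0.49, adjusted p = 0.0673) and 3 (-0.33, adjusted p = 0.147). In WT, miR-145a-5p lost its call without WT PBS replicate 1 (-0.46, adjusted p = 0.0612), and miR-200c-3p without any WT library other than bleomycin replicate 3 (adjusted p between 0.0575 and 0.14), or without R213G bleomycin replicate 1 or any R213G PBS library (between 0.0511 and 0.0574). Calls were gained for miR-200c-3p in R213G without R213G bleomycin replicate 3 (-0.42, adjusted p = 0.0058) and for miR-143-3p in WT without WT PBS replicate 3 (-0.34, adjusted p = 0.041).

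The miRNAs nearest to miR-34a-5p in pattern were found by the root mean square difference of log2 values, each centred on its own mean over the 15 libraries. They were miR-335-3p (0.173), miR-7688-5p (0.200), miR-7a-5p (0.208), miR-148b-3p (0.229) and miR-340-5p (0.232), beside a median of 0.718 over all tested miRNAs. All 5 rose in both genotypes, miR-335-3p by 1.30 in R213G and 1.19 in WT. Neighbours of either strand were picked by their pattern over these same libraries, so their rises follow from that choice. The other strand, miR-34a-3p, was the 85th nearest, at 0.411, also below that median. The distance takes in the size of a response, and in R213G lungs miR-34a-3p rose by 2.11 and miR-34a-5p by 1.30. Nearest to miR-34a-3p were miR-511-3p (0.345), miR-184-3p (0.371), miR-146b-5p (0.401), miR-21a-5p (0.408) and miR-34a-5p (0.411), beside a median of 0.992. Of these, miR-21a-5p, a miRNA long tied to fibrosis, rose by 2.02 in R213G and 1.94 in WT, and miR-511-3p, encoded in a macrophage receptor gene, by 1.74 and 1.25.

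Some markers of the cell types that whole lung holds were called changed after bleomycin. Of all tested miRNAs 22.2% rose and 19.8% fell in R213G, and 16.4% rose and 10.3% fell in WT. In whole lung a change in the number of cells of a type and a change in RNA per cell cannot be told apart. Of 7 leukocyte markers, 4 rose and 1 fell in R213G and 5 rose in WT, with summed log2 levels of 17.10 to 17.37 in R213G bleomycin and 17.29 to 17.46 in R213G PBS lungs, and 17.17 to 17.55 in WT bleomycin and 16.87 to 17.03 in WT PBS lungs. The 6 ciliated cell markers are strands of miR-34b, miR-34c, miR-449a and miR-449c, of which 2 rose (miR-449a-5p and miR-449c-5p) and 1 fell (miR-34b-3p) in each genotype. Their sums overlapped, at 17.13 to 17.56 in R213G bleomycin and 16.95 to 17.57 in R213G PBS lungs. In WT lungs they were 16.75 to 17.46 after bleomycin and 17.11 to 17.43 after PBS. Most of this sum was miR-34c-5p, with a mean of 16.88 beside 17.30 for the sum in R213G bleomycin lungs. Of 5 epithelial markers 3 fell in R213G and 1 in WT, with sums of 17.86 to 18.24 in R213G bleomycin and 18.20 to 18.37 in R213G PBS lungs, and 17.99 to 18.29 in WT bleomycin and 18.21 to 18.30 in WT PBS lungs. Of 4 mesenchymal markers 2 rose (miR-199a-3p and miR-214-3p) and 1 fell in each genotype. Their sums were 21.20 to 21.58 in R213G bleomycin and 21.54 to 21.79 in R213G PBS lungs. In WT lungs they were 21.31 to 21.62 after bleomycin and 21.59 to 21.82 after PBS. Most of this sum was miR-143-3p, with a mean of 21.28 beside 21.35 for the sum in R213G bleomycin lungs. Of 2 endothelial markers 1 fell in R213G and 0 in WT, with sums of 19.63 to 20.17 in R213G bleomycin and 20.01 to 20.18 in R213G PBS lungs, and 20.02 to 20.06 in WT bleomycin and 19.75 to 20.24 in WT PBS lungs. Of 3 erythroid markers 1 fell in R213G and 2 in WT, with sums of 14.01 to 16.17 in R213G bleomycin and 14.24 to 16.07 in R213G PBS lungs, and 12.94 to 13.68 in WT bleomycin and 14.71 to 15.87 in WT PBS lungs. No listed marker was at 0 in all libraries. The part of these cell types in the miR-34a rise was not tested.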

How the data were processed

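Small RNA of whole lung (miRNeasy extraction) was sequenced by the authors in 15 libraries. Bowtie2 2.3.2, SAMtools 1.9 and edgeR are named in the submitters' processing notes, with no genome build. The deposited table holds log2 values per library, taken from the values themselves to be log2 of 1 plus a count equalized within the table (pseudocount 1); read counts could not be recovered, so no count test or counting interval was made. Beside these it holds the authors' deposited p-values and q-values and their log2 fold changes, each of them a difference of group means.

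One limma fit (3.58.1, in R 4.3.3) with a mean for each group and a variance trend over intensity took in all 15 libraries and gave 5 contrasts. Benjamini-Hochberg adjustment ran over 818 tested miRNAs, or over 234 strand pairs, whose trend ran against their mean strand difference. Shares and sums were compared by exact two-sided permutation tests (Python 3.11.15, scipy 1.17.1). The fit was tested on simulated data. Named miRNAs were miR-34a, its seed family, p53-linked miRNAs called after bleomycin, the 5 nearest patterns per strand and up to 3 strand pairs per direction. The members and lists were chosen with earlier results of these data known. Each library was left out in turn, and other choices of filter, pseudocount, scaling, trend, array weights, replicate term and samples fitted were tried.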

Additional observations from a re-analysis of the deposited data

How the results depend on the processing

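Over 24 alternatives each, the miR-34a-5p rise stayed called, between 1.17 and 1.38 in R213G and between 0.96 and 1.12 in WT, as did that of miR-34a-3p, between 1.88 and 2.28 in R213G and between 1.00 and 1.31 in WT. The R213G strand difference ran from -0.99 to -0.58 over 22 alternatives and lost its call only with no filter on low values (-0.80, adjusted p = 0.0503). That setting also left 12 strand pairs higher and 16 lower in R213G, in place of 34 and 25. Values near 0 changed sign for R213G PBS minus WT PBS. The miR-34a-5p difference there was -0.0135 with quantile normalization and ran from -0.0213 to 0.0855 with 1 library left out, being -0.0213 without R213G PBS replicate 3. Its share of the family there ran from -0.24 to 0.16 percentage points, being -0.24 without R213G PBS replicate 3 and -0.05 without WT PBS replicate 3. Strand pairs called in WT, 8 higher and 9 lower, were 20 and 18 with array weights and 4 and 5 with the 2 groups alone, 5 higher without WT bleomycin replicate 2 or WT PBS replicate 2, and 17 lower without WT bleomycin replicate 1. Between genotypes after bleomycin 2 miRNAs were called higher with array weights and 1 without WT bleomycin replicate 1. A single strand pair was called (1 each) after PBS without WT PBS replicate 2 or R213G PBS replicate 1, and for the difference of responses without R213G bleomycin replicate 4. The p53-linked members that fell numbered between 3 and 7 in R213G and between 1 and 6 in WT. Those that rose numbered 1 or 2 in R213G and 1 in WT. With quantile normalization miR-141-3p was called higher in R213G (0.35, limma, adjusted p = 0.0107). With equal library medians miR-107-3p was called lower in R213G (-0.37, limma, adjusted p = 0.0119) and in WT (-0.34, adjusted p = 0.0392). Equal library medians moved the median miRNA by -0.13 in R213G and -0.12 in WT. Same-numbered libraries deviated together in some pairs only (correlations from -0.145 to 0.262, with 3 of 4 between 0.136 and 0.262 for R213G bleomycin and PBS), and nothing in the labels pairs them, so the main values use no block. As a hint from the data, 3 of 4 R213G bleomycin libraries correlated best with their own number among R213G PBS and 3 of 4 among WT bleomycin libraries, against 0 of 3 for WT bleomycin and WT PBS and 1 of 3 for R213G PBS and WT PBS. With the replicate block, miR-34a-5p was at 1.30 in R213G and 1.08 in WT, miR-34a-3p at 2.11 and 1.11, and the strand difference at -0.80 and -0.03, while 186 miRNAs rose and 162 fell in R213G and 132 rose and 83 fell in WT; the block changed no call of the 2 strands. The paired share differences were 2.42, 2.16, 0.16 and 0.28 points. Groups of 3 or 4 libraries and thin reads of miR-34a-3p limit the precision.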
